A study of Homo sapiens with 24 samples.

Results

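HMGB1, HMGB2, HMGB3, LBR and HDHD1 were followed across RNA-seq libraries of T-47D cells given miRNA mimics or an inhibitor. They are 5 of the 26364 genes in the count tables, taken by symbol, and all 5 passed the low-count filter in every comparison. They were chosen by their levels after the miR-181c-5p mimic in D538G and WT cells, with those results known. Their values after this mimic are therefore given as a description, with no test, and are not evidence for the choice.

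T-47D, an established line of human breast cancer, expresses the estrogen receptor. The study used clones with a WT ESR1 gene and clones edited at their own ESR1 gene to carry Y537S or D538G, mutations that make the receptor active without hormone. All cells were kept in hormone-deprived medium, transfected at a final concentration of 10 nM and harvested after 24 h. Mimics are synthetic RNAs that act as the miRNA would, inhibitors block the cell's own miRNA, and each kind had a negative control. WT cells received the miR-181c-5p, miR-301b-3p or miR-331-3p mimic or the control mimic, D538G cells the miR-181c-5p or miR-301b-3p mimic or the control mimic, and Y537S cells the miR-301b-3p or miR-331-3p mimic, the control mimic, the let-7f inhibitor or the control inhibitor. Each of the 12 conditions had 2 libraries, 1 from each of 2 clones of the genotype (clones D1 and D4 for WT, A5 and C2 for D538G, 1 and 2 for Y537S), so a genotype was represented by 2 clones. D538G and WT cells had no let-7f inhibitor libraries and Y537S cells had no miR-181c libraries among those analysed here.

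The 24 libraries held 31379962 to 50526442 counts. Of 10 markers of luminal breast cells, 9 were detected in every library, with GATA3 between 1365 and 1711 CPM (counts scaled to library size), and TFF1, an estrogen-induced gene, was listed at 0 in 2 libraries and reached 5.75 CPM at most. The 12 markers of other cell types summed to 54.6 to 90.7 CPM, most of it COL1A1 (47.5 to 81.2 CPM), while the leukocyte marker PTPRC was at 0 in 19 libraries and the neuronal marker NEFL in all 24. In bulk RNA a smaller number of cells of a type and less RNA per cell cannot be told apart.

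A miRNA pairs with messages mainly through its seed, the bases near its 5′ end, and pairing in the 3′ untranslated region (3′UTR) lowers the stability and translation of the message. HMGB proteins are abundant, non-histone chromatin proteins that bind and bend DNA through paired HMG boxes. HMGB1 is the most widely expressed of them and acts as a danger signal when it leaves the cell, HMGB2 is a close relative that is abundant in dividing cells, and HMGB3 is a family member known from stem and progenitor cells. LBR, the lamin B receptor, is an inner nuclear membrane protein that tethers heterochromatin to the lamina and also carries sterol reductase activity. HDHD1, now named PUDP, is a haloacid dehalogenase-like phosphatase that acts on pseudouridine monophosphate.

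The 4 miRNAs have different seeds, which decide where each can pair. The mature sequences below are those of RefSeq (GRCh38.p14), with bases 2 to 8, the seed, in capitals. The other members of the miR-181 family, miR-181a-5p, miR-181b-5p and miR-181d-5p, share the seed of miR-181c-5p, and miR-181a-5p is shown for comparison.
miR-181c-5p: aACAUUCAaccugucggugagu
miR-181a-5p: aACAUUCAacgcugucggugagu
miR-301b-3p: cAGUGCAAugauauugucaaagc
miR-331-3p: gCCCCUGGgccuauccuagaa
let-7f-5p: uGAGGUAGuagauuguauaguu

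The 3′UTR of the canonical transcript of each gene (GENCODE v44 on GRCh37) was searched on the transcribed strand for TGAATGT, the complement of bases 2 to 8 of miR-181c, as a 7-base match, and for TGAATGTA as an 8-base match. GAATGT, the complement of bases 2 to 7, was counted as a shorter match, and it lies inside both longer words. Of the 5 genes, 4 held a 7- or 8-base match for miR-181c, HDHD1 the only one with 8 bases and HMGB1 the only one with none. Of all 18693 genes with a 3′UTR, 19.4% held at least a 7-base match and 6.29% an 8-base match. The best match of each gene is shown as the message strand, 22 bases that end opposite base 1 of the miRNA, with the paired letters (and the A opposite base 1 where it is part of the match) in capitals.
HDHD1, chrX:6968044-6968051: agtatgtgataaagTGAATGTA
HMGB2, chr4:174253000-174253006: acagcttctgatgtTGAATGTt
LBR, chr1:225590332-225590338: tttgtacagtatttTGAATGTg
HMGB3, chrX:150158418-150158424: agaactgtttgtccTGAATGTg
HMGB1, chr13:31034588-31034594: ttaaagaagacctgaGAATGTA

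Positions are those of the capitals on GRCh37, and all genes but HMGB3 lie on the minus strand. Each window lies in the 3′UTR part of an exon and was identical to the reference genome. The HDHD1 match began 286 bases into a 3′UTR of 1376 bases, which held 3 further 6-base matches, 2 of them followed by an A. The HMGB2 match began at base 225 of 704, behind 2 shorter matches at bases 27 and 63. The LBR match began at base 667 of 1801 and a shorter one, followed by an A, at base 1324. HMGB3 held a single match at base 2031 of 2857. HMGB1, whose 3′UTR of 4653 bases is the longest, held shorter matches at bases 158 and 900, the latter followed by an A. Among genes whose 3′UTR was within 20% of the same length, 10.6% held at least a 7-base match for miR-181c at the length of HMGB2, 17.0% at the length of HDHD1, 22.1% for LBR, 32.3% for HMGB3 and 47.6% for HMGB1.

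**Figure D1:**
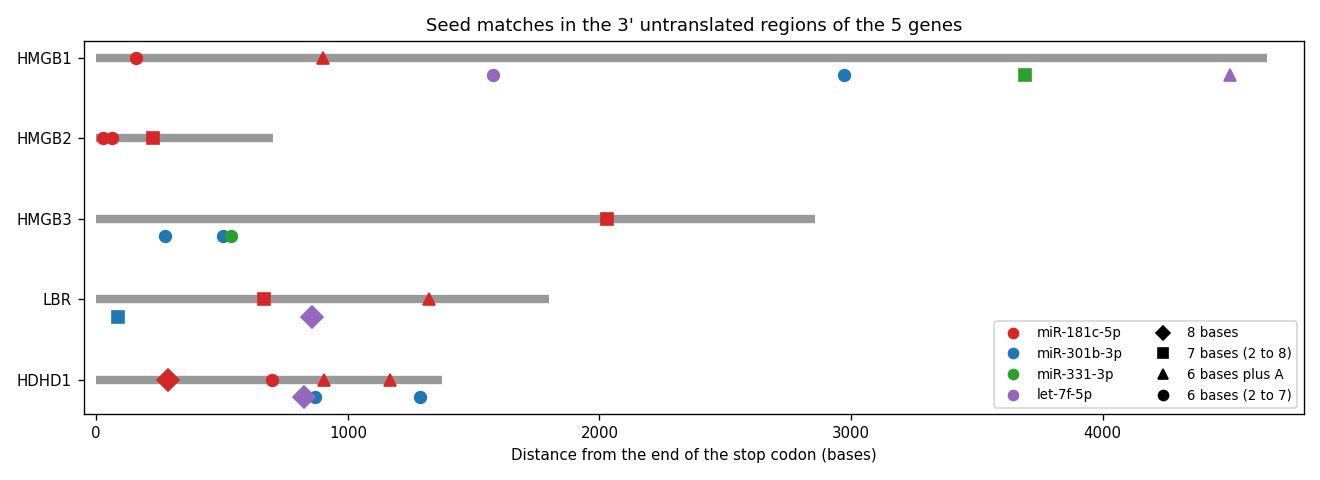
Seed matches along the 3′UTRs of the 5 genes, with the distance from the end of the stop codon in bases on the x axis; grey bars are the 3′UTRs, colours the miRNAs and symbols the length of the match. Matches for miR-181c lie on the bars and the others just below them, and the matches for let-7f of 8 bases are in LBR and HDHD1.

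HDHD1 and LBR also held an 8-base match for let-7f, at bases 826 and 859 of their 3′UTRs, which 3.78% of all genes with a 3′UTR held. These windows are shown because HDHD1 was well above its controls in both let-7f inhibitor libraries, as described further on.
HDHD1, chrX:6967504-6967511: ttggaaaatgtttgCTACCTCA
LBR, chr1:225590139-225590146: tgaatttggctttgCTACCTCA

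For miR-301b the only 7-base match in the 3′UTRs of the 5 genes was at base 87 of LBR, and for miR-331 at base 3692 of HMGB1. HDHD1 held 2 matches of 6 bases for miR-301b and none for miR-331 in its 3′UTR. Of the coding sequences, that of HDHD1 held 1 match of 7 bases each for miR-301b and miR-331, and that of LBR 1 each for miR-301b and let-7f. A match is a description of the letters and not a site shown to be used.

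HDHD1, the phosphatase gene, had the largest differences of the 5 after the miR-181c mimic. In control cells its level was 29.6 and 28.2 CPM in the WT clones D1 and D4 and 25.5 and 24.6 CPM in the D538G clones A5 and C2. After the miR-181c mimic it was 8.84 and 9.54 CPM in WT and 10.1 and 7.75 CPM in D538G cells. The treated libraries lay below all control libraries of either genotype, without overlap. The share of all genes with such a separation was not counted, here or for the genes and treatments below. On the log2 scale the fitted difference was −1.67 (SE 0.12) in WT and −1.48 (SE 0.15) in D538G cells, which corresponds to 31.5% and 35.9% of the control level. Ordered by log2 fold change among 10064 genes whose mean log2 CPM reached 3, HDHD1 was the lowest gene (rank 1) in D538G and rank 4 in WT cells.

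HMGB2 was the next of the 5. It stood at 59.3 and 64.9 CPM in WT controls and at 147 and 178 CPM in D538G controls, and at 21.3 and 26.8 CPM and 75.9 and 79.0 CPM after the miR-181c mimic. In each genotype both treated libraries were below both controls, but the treated D538G libraries were still above the WT controls. The fitted log2 difference was −1.38 (SE 0.12) in WT and −1.07 (SE 0.10) in D538G cells, or 38.4% and 47.8% of control, at ranks 10 and 7.

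LBR, the nuclear membrane gene, stood at 85.8 and 91.3 CPM in WT controls and at 47.02 and 55.4 CPM after the miR-181c mimic. The D538G controls stood at 123 and 126 CPM and the treated D538G libraries at 84.0 and 79.8 CPM. The log2 difference was −0.80 (SE 0.09) in WT and −0.60 (SE 0.08) in D538G cells, at ranks 147 and 156. Here too neither genotype showed overlap between treated and control libraries.

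HMGB1, the gene with no match to bases 2 to 8, was at 186 and 192 CPM in WT controls. After the mimic it was at 120 and 139 CPM, a log2 difference of −0.56 (SE 0.08). In D538G cells the controls were at 268 and 313 CPM and the treated libraries at 238 and 229 CPM, a log2 difference of −0.31 (SE 0.08) that was −0.20 without the control library of clone C2. HMGB1 was at rank 424 in WT and 926 in D538G cells, well above the ranks of HMGB2.

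HMGB3 did not share this pattern, although its 3′UTR held a 7-base match. Its level was 112 and 114 CPM in WT controls and 124 and 123 CPM after the mimic, and 120 and 141 CPM against 125 and 133 CPM in D538G cells. The log2 difference was 0.11 (SE 0.07) in WT and −0.02 (SE 0.09) in D538G cells, near the middle of the ranking (6547 and 4954). The D538G libraries of the treated and control groups overlapped, and the sign of the difference turned without the control library of clone C2 (0.10) and without the treated library of clone A5 (0.03).

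**Figure D2:**
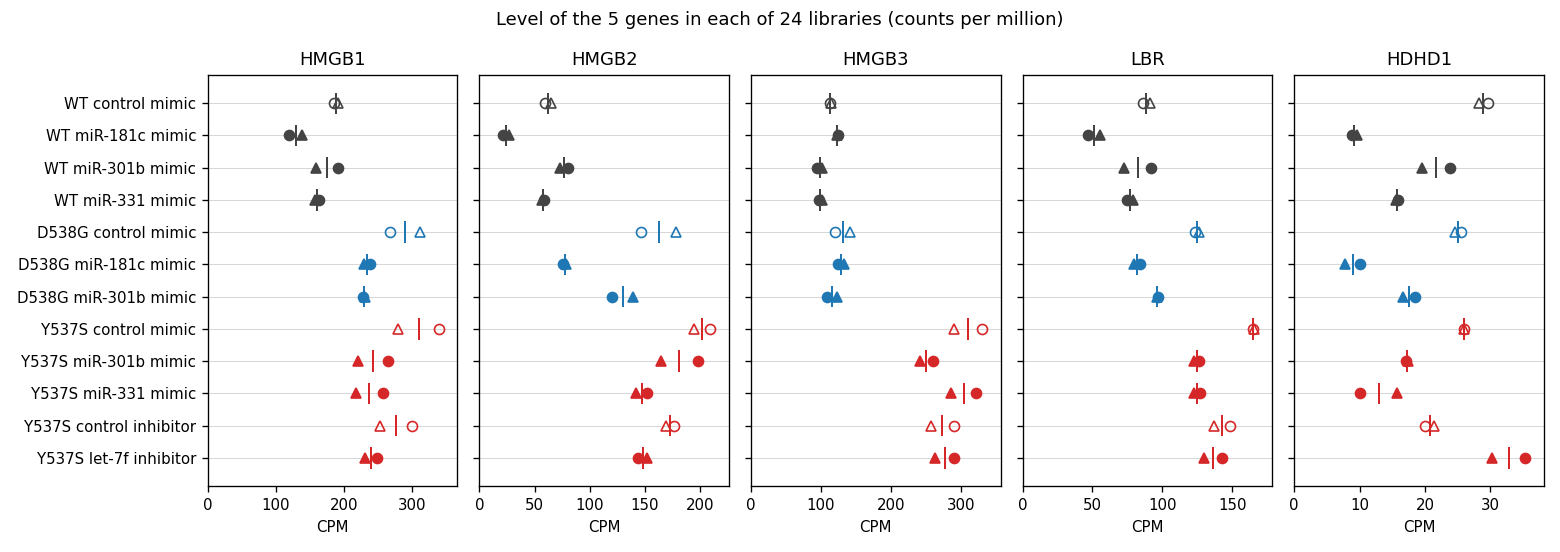
Level of each gene in CPM in the 24 libraries, by condition; circles are clones D1, A5 and 1, triangles clones D4, C2 and 2, open symbols negative controls, and short vertical lines the means of 2 libraries. HDHD1, HMGB2 and LBR are lower after the miR-181c mimic than in the matching controls, HMGB3 is not, and HMGB3 is higher in Y537S than in the other cells.

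The medians of all 14826 and 14968 genes tested in D538G and WT cells were 0.00 and 0.01 on the log2 scale, against −0.60 and −0.80 for the 5 genes. When the trend of log2 CPM with the GC content of transcripts was removed from each library, the differences after miR-181c became −1.36 and −1.56 for HDHD1 in D538G and WT cells, −0.88 and −1.17 for HMGB2, −0.41 and −0.56 for LBR and −0.11 and −0.31 for HMGB1. For HMGB3 they became 0.12 and 0.25, so that its sign in D538G cells turned.

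Set beside genes with matches of the same length, the members differed in place. Leaving out the 5 genes, the median log2 fold change in WT cells was −0.31 for the 924 genes with an 8-base match, −0.13 for the 1874 with a 7-base match only, −0.06 for the 2456 with shorter matches only and 0.10 for the 7909 with none. In D538G cells the medians were −0.24, −0.11, −0.05 and 0.08. HDHD1 lay below the 5th percentile of the 8-base class in both genotypes (−1.01 and −0.77). HMGB2 and LBR lay below the 5th percentile of the 7-base class (−0.73 and −0.59), HMGB3 lay above its median, and HMGB1 lay below the first quartile of the class with shorter matches (−0.24 and −0.20). The genes were chosen by these values, so their place in the classes is a description. In D538G cells LBR was at −0.604, close to its cut of −0.593. The classes were not recomputed with the GC trend removed. In Y537S cells, classed by the matches of the miRNA given, the medians in the same order were −0.27, −0.13, −0.02 and 0.06 after miR-301b. They were 0.05, 0.18, 0.07 and −0.01 after miR-331, and 0.05, 0.03, −0.01 and 0.00 after the let-7f inhibitor.

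**Figure D3:**
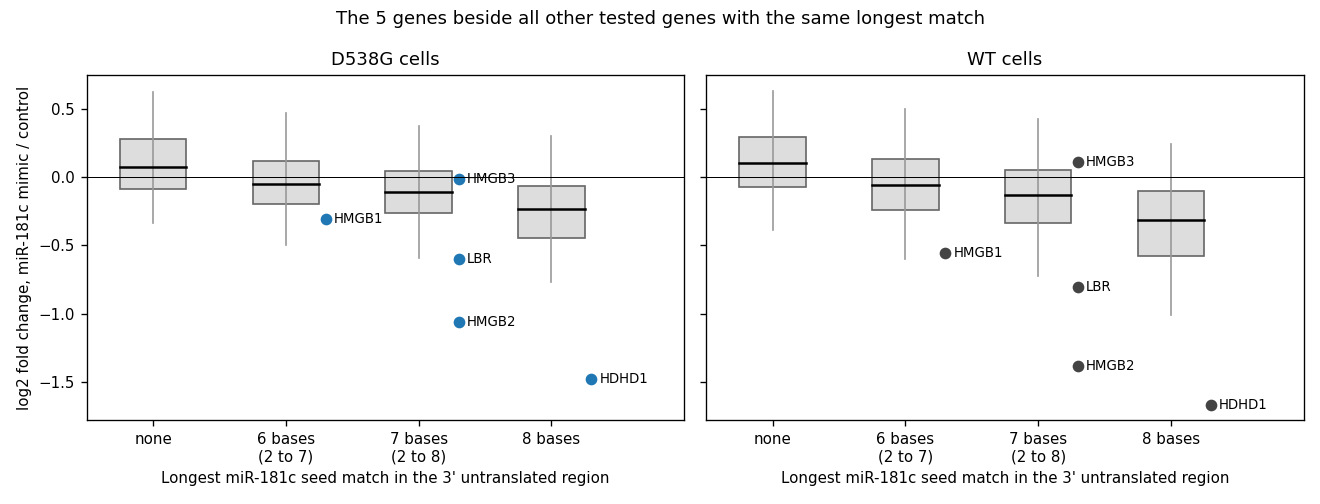
Log2 fold change after the miR-181c mimic in D538G (left) and WT cells (right) by the longest seed match in the 3′UTR, for all other tested genes (box, quartiles; line, median; whisker, 5th to 95th percentile) and for the 5 genes (points). The 6-base class includes matches followed by an A. HDHD1, HMGB2 and LBR lie below the whiskers of their classes and HMGB3 lies above the median of its class.

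The miR-331 mimic gave the first comparisons that did not choose the genes. In Y537S cells, whose libraries enter no comparison with miR-181c, HDHD1 went from 26.0 and 26.0 CPM in controls to 10.1 and 15.8 CPM in clones 1 and 2. It fell by 0.99 on the log2 scale (SE 0.23; edgeR quasi-likelihood test, Benjamini-Hochberg adjusted p = 0.0260), larger in clone 1 than in clone 2. HMGB2 went from 209 and 195 CPM to 152 and 142 CPM and fell by 0.44 on the log2 scale (SE 0.09; adjusted p = 0.0201). LBR went from 165 and 165 CPM to 127 and 123 CPM and fell by 0.38 (SE 0.09; adjusted p = 0.0252). In these 3 genes both treated libraries were below both controls.

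HMGB1 went from 340 and 280 CPM to 258 and 218 CPM, a log2 difference of −0.37 (SE 0.13; adjusted p = 0.0853), and HMGB3 was at 330 and 290 CPM against 322 and 286 CPM, a log2 difference of −0.01 (SE 0.11; adjusted p = 0.936). The miR-331 mimic thus lowered 3 of the 5 genes and raised 0, in a comparison in which 33.0% of all genes tested were called. Blocked on clone, the fit called 4 lower (HMGB1 at adjusted p = 1.94e-06), where 60.7% of all genes were called. The call of HMGB2 was lost in 3 and that of LBR in 4 of the 4 fits that left out a library of the comparison (adjusted p up to 0.113 and 0.157), and that of HDHD1 in none, while HMGB1 passed without the treated library of clone 1 (adjusted p = 0.04996). With the GC trend removed HDHD1 was at −0.90 (adjusted p = 0.0420), while HMGB2 was at −0.07 (adjusted p = 0.666) and lost its call. LBR was then at 0.07 and HMGB1 at 0.11, above 0. With the clone as a block as well, HDHD1 was called lower (−0.92; adjusted p = 4.47e-07) and HMGB3 higher (0.16; adjusted p = 0.00909).

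In WT cells HDHD1 was at 15.8 and 15.5 CPM after the miR-331 mimic, against 29.6 and 28.2 CPM in the controls, which also enter the miR-181c comparison. It fell by 0.86 on the log2 scale (SE 0.10; adjusted p = 0.000276). HMGB1 fell by 0.20 (SE 0.06; adjusted p = 0.0311), from 186 and 192 to 164 and 158 CPM, but it lost its call in 3 of 4 fits with a library left out (without control clone D4 and without either treated library, adjusted p up to 0.214). It was at 0.02 with the GC trend removed. HMGB3 (−0.17), LBR (−0.18) and HMGB2 (−0.08) did not pass, with adjusted p of 0.0708, 0.0753 and 0.462. The count was 2 of 5 lower and 0 higher, where 24.8% of all genes were called. In the block fit it was 4 of 5, HMGB3 (adjusted p = 0.0212) and LBR (adjusted p = 0.0243) included, where 37.0% were called. The response of HDHD1 to miR-331 differed between Y537S and WT cells by −0.15 (SE 0.25), less than its error (adjusted p = 0.768 for the difference). That of HMGB2 differed by −0.37 (SE 0.11; adjusted p = 0.0714) and that of LBR by −0.22 (SE 0.10; adjusted p = 0.198). With the clone as a block both passed (adjusted p = 0.00151 and 0.0459), and HDHD1, HMGB1 and HMGB3 did not. Of 15666 genes tested, 1557 were called without and 5345 with the block. Tests of these differences were added after the values were seen.

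The miR-301b mimic was given to all 3 genotypes. In Y537S cells HDHD1 went to 17.1 and 17.4 CPM, a log2 difference of −0.62 (SE 0.12) at an adjusted p of 0.0507. LBR, with a 7-base match for miR-301b, went to 126 and 123 CPM, a log2 difference of −0.43 (SE 0.08; adjusted p = 0.0517). Both genes were lower than both controls in both clones, though neither passed the threshold. HMGB1 (−0.37), HMGB3 (−0.33) and HMGB2 (−0.18) had adjusted p of 0.155, 0.110 and 0.387. By the edgeR test 0 of 5 genes passed, where 3.57% of all genes were called. At an unadjusted p under 0.05 were 4 of the 5 and 3510 of all 15145 genes tested. DESeq2 called 3 of 5, and 1771 genes in all. With the clone as a block all 5 were lower, at adjusted p from 3.22e-10 for LBR to 0.00602 for HMGB2, in a fit that called 38.4% of all genes. With the GC trend removed HMGB2 was at 0.04.

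In D538G cells, with the same controls as in the miR-181c comparison, the miR-301b mimic lowered 3 of the 5 genes, where 11.8% of all genes were called. HDHD1 fell by 0.52 (SE 0.12; adjusted p = 0.0259), to 18.5 and 16.6 CPM. LBR fell by 0.38 (SE 0.08; adjusted p = 0.0190), to 96.7 and 95.9 CPM, and HMGB1 fell by 0.34 (SE 0.09; adjusted p = 0.0395), to 229 and 231 CPM. HMGB2 (−0.33) and HMGB3 (−0.17) had adjusted p of 0.0883 and 0.301. With the clone as a block all 5 were lower, where 33.3% were called. Without the treated library of clone C2 none of the 3 calls remained, and without its control library those of LBR (adjusted p = 0.0807) and HMGB1 (adjusted p = 0.330) did not. HMGB1 was also lost without the treated library of clone A5 (adjusted p = 0.0654), 3 of 4 fits in all, and HMGB2 passed without the control library of that clone (adjusted p = 0.00406). With the GC trend removed 0 of 5 passed: HDHD1 was at −0.44 (adjusted p = 0.116, and 0.00178 with the block as well), LBR at −0.09 and HMGB1 at −0.04 (adjusted p = 0.645 and 0.880).

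In WT cells, again with the shared controls, the miR-301b mimic gave a different picture for HMGB2. It was higher in both clones, at 80.6 and 73.6 CPM against 59.3 and 64.9 CPM, a log2 difference of 0.31 (SE 0.09) at an adjusted p of 0.0720. HDHD1 was at 23.8 and 19.5 CPM, a log2 difference of −0.42 (SE 0.12; adjusted p = 0.0750), HMGB3 at −0.21 (adjusted p = 0.134), and LBR and HMGB1 both at −0.10 (adjusted p = 0.610 and 0.529), with clone D1 above and clone D4 below its control for the last pair. By the edgeR test 0 of 5 passed, where 8.5% of all genes were called. At an unadjusted p under 0.05 were 3 of the 5 and 4025 of all 15113 genes tested. DESeq2 called 2 of 5, and 1789 genes in all. With the clone as a block HMGB2 rose (adjusted p = 0.00726) and HMGB3 (adjusted p = 0.0153) and HDHD1 (adjusted p = 0.00525) fell, where 28.2% were called. With the GC trend removed HMGB2 was at 0.51 (adjusted p = 0.0102, and 0.000383 with the block as well). HDHD1 was at −0.31 without the block (adjusted p = 0.182), and LBR and HMGB1 were above 0 (0.11 and 0.12). Leaving out the treated library of clone D1, HDHD1 passed (adjusted p = 0.0106), and leaving out that of clone D4, HMGB2 passed (adjusted p = 0.0335).

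The response of HMGB2 to miR-301b was below that in WT cells, with a difference of −0.63 (SE 0.16) in D538G and −0.47 (SE 0.15) in Y537S cells. Neither difference passed over all genes (adjusted p = 1.00 for both). In the fit with the clone as a block both did, with adjusted p of 0.00679 and 0.0484, and HMGB2 was the only one of the 5 genes for which they did. Of all genes tested, the block fits called 23 of 15613 and 32 of 15814, and the fits without the block 1 each. These tests were added after the values were seen, and the differences share the WT libraries.

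**Figure D4:**
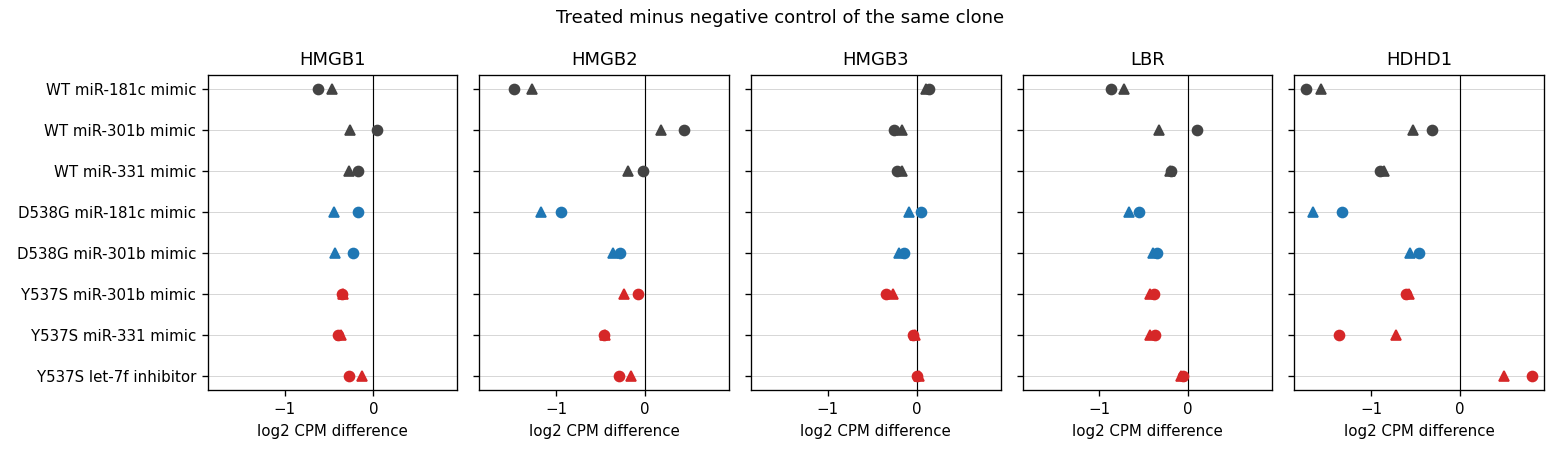
Log2 CPM of each treated library minus the negative control of the same clone, by treatment; circles are clones D1, A5 and 1 and triangles clones D4, C2 and 2. HDHD1 is left of 0 in all 10 libraries of the miR-301b and miR-331 mimics and right of 0 in both let-7f inhibitor libraries, and HMGB2 is right of 0 after miR-301b in WT cells.

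The let-7f inhibitor was given to Y537S cells, with its own control. HDHD1, which holds an 8-base let-7f match, was at 35.3 and 30.3 CPM against 20.01 and 21.4 CPM, the highest levels of the gene in any library. The log2 difference was 0.67 (SE 0.13), at an adjusted p of 0.751. Control mimic libraries of the same clones held more HDHD1 than these inhibitor controls, at 26.0 and 26.0 CPM. LBR, with a match of the same length, was at 143 and 130 CPM against 149 and 137 CPM, a log2 difference of −0.06 (SE 0.09; adjusted p = 1.00). HMGB2 was at 144 and 152 CPM against 177 and 169 CPM (−0.22, SE 0.07; adjusted p = 0.910), HMGB1 was at −0.20 (SE 0.10) and HMGB3 at 0.02 (SE 0.09).

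By the edgeR test 0 of 5 genes and 0 of all 15140 genes tested passed (0.0%), with 2 of the 5 and 786 of all genes at an unadjusted p under 0.05. DESeq2 called 89 genes, HDHD1 among them (adjusted p = 0.0110). With the clone as a block 11.2% of all genes were called, HDHD1 higher (adjusted p = 5.27e-05) and HMGB1 and HMGB2 lower (adjusted p = 0.000973 and 0.00120). The 2 let-7f libraries of HDHD1 differed from each other by less than from the controls, and did not overlap with them.

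Leaving out the miR-181c libraries, which chose the genes, HDHD1 was below its own clone's control in 10 of 10 mimic libraries, with log2 differences from −1.36 to −0.31 (median −0.59). HMGB3 was below in 10 as well (−0.34 to −0.02), HMGB1 and LBR in 9 and HMGB2 in 8. These libraries share controls within a genotype, and the D538G and WT controls also enter the comparisons that chose the genes, so that the counts are not independent. The same counts were not made over all genes, so they lack that background. Fits that blocked on clone and removed the GC trend put HDHD1 at −0.52 after miR-301b in Y537S and −0.31 in WT cells (adjusted p = 2.88e-06 and 0.0433). After the let-7f inhibitor they put it at 0.64 (adjusted p = 3.78e-12). With the GC trend removed and no block the differences were −0.52, −0.31 and 0.64, and none passed (adjusted p = 0.133, 0.182 and 0.9996). The share of all genes called in these fits is not given.

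HDHD1 overlaps exons of STS, the steroid sulfatase gene, on the opposite strand. The library kit keeps strand, but whether the counting used it is not given in the sources used here, so reads of the pair could be mixed. STS was at 31.2 to 59.8 CPM in the WT and at 3.38 to 16.6 CPM in the mutant libraries, and after the miR-181c mimic its log2 difference was 0.25 in D538G and −0.08 in WT cells (adjusted p = 0.477 and 0.769). HMGB1 has many processed copies in the genome, and how reads that map to several places were treated is not given either. HMGB3P1, a listed copy of HMGB3, held 0 to 4 counts a library.

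Without a miRNA of interest, the genes differed in level between genotypes. In cells given the control mimic HMGB2 was at 209 and 195 CPM in Y537S and 147 and 178 CPM in D538G, against 59.3 and 64.9 CPM in WT cells. The log2 differences from WT were 1.72 (SE 0.09; adjusted p = 9.09e-05) and 1.37 (SE 0.10; adjusted p = 2.51e-05). HMGB3 was at 330 and 290 CPM in Y537S against 112 and 114 CPM in WT cells, higher by 1.47 (SE 0.09; adjusted p = 0.000116), while the D538G libraries, at 120 and 141 CPM, differed from WT by 0.20 (SE 0.09; adjusted p = 0.112). HMGB1 was higher by 0.73 in Y537S and 0.61 in D538G (adjusted p = 0.00211 and 0.000539) and LBR by 0.91 and 0.48 (adjusted p = 0.000309 and 0.000950). HDHD1 was lower by an amount that did not pass in either (−0.14 and −0.22; adjusted p = 0.379 and 0.113). The D538G difference of HMGB3 passed without control clone A5 (adjusted p = 0.0102). Altogether 4 of the 5 genes were higher in Y537S, where 29.0% of all genes were called, and 3 in D538G cells, where 38.9% were called. The WT controls, and in the second case the D538G controls, also enter the comparisons that chose the genes.

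The cells given the miR-301b mimic, whose libraries did not choose the genes, showed a similar order. HMGB3 was higher by 1.36 (SE 0.10; adjusted p = 4.84e-05) and HMGB2 by 1.23 (SE 0.12; adjusted p = 0.000228) in Y537S than in WT cells. LBR was higher by 0.60 (adjusted p = 0.0108) and HMGB1 by 0.47 (adjusted p = 0.0303), but without WT clone D4 neither passed (adjusted p = 0.107 and 0.225). HMGB1 also lost its call without WT clone D1 (adjusted p = 0.0732) and without Y537S clone 1 (adjusted p = 0.0734), 3 of 4 fits in all. This made 4 of 5 genes higher, where 20.4% of all genes were called. In D538G cells HMGB2 (0.73, adjusted p = 0.000261) and HMGB1 (0.37, adjusted p = 0.0177; 0.145 without WT clone D4) were higher, 2 of 5, where 31.4% were called. HMGB3 (0.23), LBR (0.20) and HDHD1 (−0.33) did not pass (adjusted p = 0.118, 0.216 and 0.114), though LBR did without WT clone D1 (adjusted p = 0.0201) and with the GC trend removed (adjusted p = 0.0169), and HDHD1 did without WT clone D4 (adjusted p = 0.0293). G2/M phase genes moved with HMGB2 in these comparisons: all 49 listed were higher in Y537S in both, with a median log2 difference of 1.79 in control and 1.61 in miR-301b cells, and 48 and 47 were higher in D538G cells. The part of this in the level of HMGB2 was not tested. Genotypes have different clones and separate count tables, so that genotype and clone or table cannot be told apart.

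The families and pathways of the 5 genes were described with lists from which the 5 were left out. Of all genes tested, the miR-181c mimic lowered 3.95% and raised 5.58% in D538G cells, and lowered 8.28% and raised 8.1% in WT cells. Of 24 other HMG box and HMG chromatin genes tested, 0 fell and 1 rose in D538G and 1 fell and 2 rose in WT cells, with a median log2 change of −0.04 and 0.00. CIC, an HMG box repressor, was the only one called the same way in both (0.51 and 0.50; adjusted p = 0.0114 and 0.00364). Of 24 other genes of the nuclear lamina and inner nuclear membrane, 1 fell and 3 rose in D538G and 2 fell and 5 rose in WT cells. BANF1, which bridges DNA and the membrane, rose by 0.68 and 0.85 (adjusted p = 0.00222 and 0.000110) and SUN2, a linker of the nuclear envelope, by 0.54 and 0.61 (adjusted p = 0.00419 and 0.00165), opposite to LBR, and TOR1AIP2, with 3 matches for miR-181c, fell by 0.42 and 0.53 (adjusted p = 0.0121 and 0.00107).

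Late cholesterol synthesis, the pathway of the sterol reductase activity of LBR, had 1 gene up and 0 down of 12 in D538G and 0 up and 1 down in WT cells. Of 7 genes of the SET complex, with which HMGB2 is found, 1 fell in each, ANP32A (−0.45 and −0.61; adjusted p = 0.0140 and 0.000938). Of the receptors and adaptors of HMGB1, 1 rose in each genotype, SDC1 (0.34 and 0.34; adjusted p = 0.0361 and 0.0129), and 1 fell in D538G cells, of 11 and 10 tested. Of haloacid dehalogenase-like phosphatases, the family of HDHD1, 0 of 20 were called in D538G and 1 fell and 1 rose of 18 in WT cells. Of 13 pseudouridine synthases 1 fell and 1 rose in D538G and 2 fell and 1 rose in WT cells, DKC1 lower (−0.36 and −0.32; adjusted p = 0.0232 and 0.0369) and TRUB2 higher (0.50 and 0.27; adjusted p = 0.00872 and 0.0429) in both.

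Of 49 G2/M phase genes 2 fell in D538G and 4 in WT cells and 0 rose, with medians of −0.18 and −0.05. KIF2C, a kinesin of mitotic spindles, fell by 0.50 and 0.52 (adjusted p = 0.0158 and 0.00851) and SMC4, a condensin subunit, by 0.37 and 0.27 (adjusted p = 0.0184 and 0.0256). Of 18 published targets of the miR-181 family 7 fell and 1 rose in D538G and 9 fell and 1 rose in WT cells. This list is not independent of these data, since KIF3B was added because an earlier account of the same libraries named it and ESR1 because the study names it. Without both, 5 of 16 fell in D538G and 7 of 16 in WT cells. MCL1, which holds no 7-base match, rose by 0.36 and 0.37 (adjusted p = 0.0120 and 0.00779). KIF3B, a kinesin with 2 matches, fell by 1.15 and 1.75 (adjusted p = 0.00129 and 3.80e-06).

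**Figure D5:**
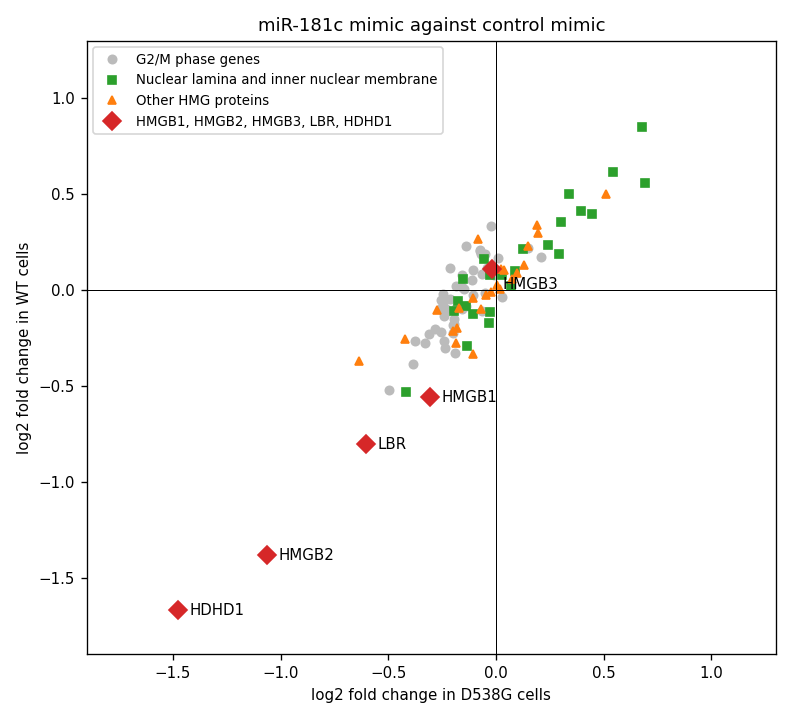
Log2 fold change after the miR-181c mimic in D538G (x axis) and WT cells (y axis) for the 5 genes (red diamonds) and 3 of the lists. HMGB1, LBR, HMGB2 and HDHD1 lie along the lower left, apart from most of the other HMG, lamina and G2/M genes, and HMGB3 lies near 0.

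The genes most like each of the 5 were found by the root mean square difference of log2 CPM, treated minus the control of the same clone, over the 16 treated libraries. For LBR the nearest was DDAH1 (0.10), followed by ENAH and HNRNPH3, against a median of 0.49 over 10059 genes. For HMGB1 they were MAP7 (0.10), ASPH and FLVCR1, for HMGB3 WDR3 (0.06), DUSP3 and GGA2, and for HMGB2 PTBP3 (0.24), CTDSPL and MBOAT1. HDHD1 had no gene as near, SSB (0.38), ZNF883 and ZNF33B being the closest, against a median of 1.02. Among the 5 themselves HMGB1 and LBR were most alike (0.16) and HMGB3 and HDHD1 least (0.98). The measure uses the libraries that chose the genes and is a description.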

How the data were processed

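RNA was sequenced from T-47D clones as poly-A selected libraries. The authors deposited unnormalized gene counts, made by aligning reads to hg19 with HISAT2, handling them with SAMtools and counting with featureCounts (Subread) on the UCSC Known Genes annotation. Their versions are not given in the sources used here. Groups came from the sample labels. For D538G and WT cells the table headers give clone names and the labels clone numbers, and these columns were placed by condition alone. The members and the gene lists were chosen with earlier results of these data known.

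Each treatment was compared with its negative control in the same genotype, and each mutant with WT cells under the same treatment, by the edgeR 4.0.16 quasi-likelihood F test in R 4.3.3 (TMM, filterByExpr), with two-sided p-values adjusted by Benjamini-Hochberg over all genes tested and called under 0.05. The SE is the log2 fold change divided by the square root of F. Without the block, p-values measure the spread between the 2 clones of a condition. In the block fits the level of each clone is taken out, so this spread does not enter their p-values. Those rest on how alike the responses of 2 clones were, with few residual degrees of freedom and a variance shared over genes. An exact two-sided permutation test of 2 libraries against 2 could not go below 0.333. CPM and log2 CPM (prior count 2) were scaled by TMM over the 24 libraries. Libraries of the same clone come from the same cell line, so the clone pairs them: clone differences in treated and control libraries correlated across genes by 0.17 to 0.59, and the paired fit had the clone as a block. The 2 libraries of a condition differed by 11.2 to 48.3 times counting noise.

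Symbols were matched to GENCODE v44 lifted to GRCh37, 22494 by symbol, 1351 by an older symbol (HDHD1 as PUDP) and 2519 not at all. This annotation served only for 3′UTRs, positions and GC content. Alternatives were DESeq2 1.42.0, RLE size factors, no filter on low counts, all 24 libraries in 1 fit, each library left out, the clone as a block, and a lowess GC correction (span 0.3) with and without the block. Genes named are the 5, the 3 genes most like each of them, and for each of the 9 lists up to 2 genes lowered and 2 raised most by miR-181c among those called the same way in both genotypes; 1 gene that this rule names is not reported here. Programs were tested on simulated data. Python 3.11.15, pandas 2.3.3 and numpy 2.4.6 were used.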

Additional observations from a re-analysis of the deposited data

Results flagged for a closer look

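Without GC correction, the response of HMGB2 to the miR-301b mimic had opposite signs between genotypes. In Y537S cells the fitted log2 difference was small (−0.18, SE 0.11; edgeR quasi-likelihood test, adjusted p = 0.387). With the GC trend removed it was 0.04, on the same side of 0 as in WT cells (0.51), while D538G cells were at −0.08. Both WT clones were above their controls (log2 differences of 0.44 and 0.18), while both D538G clones (−0.28 and −0.35) and both Y537S clones (−0.08 and −0.24) were below theirs. The difference was −0.63 for D538G minus WT and −0.47 for Y537S minus WT, and neither passed over all genes by the edgeR quasi-likelihood test (adjusted p = 1.00 for both), while both passed with the clone as a block (adjusted p = 0.00679 and 0.0484). These block fits called 23 of 15613 and 32 of 15814 genes tested. Conditions held 2 libraries each, too few for single libraries to be examined as outliers. The cause was not tested.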

How the results depend on the processing

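Of 21 calls of the 5 genes over the tested comparisons, 9 were lost when 1 of the 4 libraries was left out, and the depth behind HDHD1 was 278 to 1343 counts a library. The count of the 5 genes called went, with the clone as a block (the paired fit), from 0 to 5 after miR-301b in Y537S, 3 to 5 in D538G and 0 to 3 in WT cells, from 2 to 4 after miR-331 in WT and from 0 to 3 after the let-7f inhibitor. In each case the block fit has fewer residual degrees of freedom and called more of all genes. The block with GC correction gave 3, 1 and 2 after miR-301b in Y537S, D538G and WT, 2 after let-7f and 1 after miR-331 in WT. After miR-331 in Y537S it gave 2, HDHD1 lower and HMGB3 higher. GC correction alone gave 1 after miR-331 in Y537S, 0 and 1 after miR-301b in D538G and WT and 1 after miR-331 in WT. DESeq2 gave 3 and 2 after miR-301b in Y537S and WT and 1 after let-7f, where it called 1771, 1789 and 89 of all genes. No filter on low counts gave 2 and 2 after miR-301b in Y537S and WT. All 24 libraries in 1 fit gave 3 after miR-301b in Y537S and 1 after miR-331 in WT. For GC correction, no filter, the joint fit and left-out libraries the share of all genes called is not given, so those counts lack that background. Leaving out a library gave 1 to 3 after miR-331 in Y537S, 0 to 4 and 0 to 1 after miR-301b in D538G and WT, 1 to 2 after miR-331 in WT and 2 to 4 for Y537S against WT under miR-301b. The median of the 5 after miR-181c was −0.41 in D538G and −0.56 in WT cells with GC correction (−0.41 and −0.56 with the block as well), and −0.95 to −0.69 in WT cells with a library left out. Without and with the block, GC correction put above 0 HMGB2 after miR-301b in Y537S (0.0429 and 0.0401), HMGB1, HMGB3 and LBR after miR-331 in Y537S (0.11 and 0.10, 0.16 and 0.16, 0.0709 and 0.0692), LBR after let-7f (0.0532 and 0.0532), HMGB1 and LBR after miR-301b in WT (0.12 and 0.12, 0.11 and 0.11), and HMGB1, HMGB2 and LBR after miR-331 in WT (0.0247 and 0.0262, 0.13 and 0.13, 0.0465 and 0.0484). With a library left out the sign turned for HMGB3 after miR-181c in D538G (−0.124 to 0.1002), miR-331 in Y537S (−0.0931 to 0.101) and let-7f (−0.0555 to 0.0999), LBR after let-7f (−0.138 to 0.0103) and miR-301b in WT (−0.288 to 0.0571), and HMGB1 after miR-301b in WT (−0.240 to 0.0204). Of the listed genes 21 were called after miR-181c in D538G and 32 in WT cells. The counts of listed genes became 38 in D538G with no filter, 20 in WT with all 24 libraries, 6 and 21 with GC correction and 77 and 61 with the block. They were 50 and 49 with block and GC correction, and 10 to 41 and 16 to 30 with a library left out. Except for the block, the share of all genes called under these alternatives is not given. With 8-base matches only, 1 of the 5 genes held a miR-181c match in place of 4. HDHD1 kept its direction under every alternative run in the 6 treatment comparisons that did not choose the genes. The cause of these changes was not tested.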

Other observations

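HMGB3 and HMGB2 were both at their highest in Y537S cells, while in D538G cells HMGB3 was near its WT level and HMGB2 well above its own. In cells given the control mimic HMGB3 was at 330 and 290 CPM in Y537S, at 120 and 141 CPM in D538G and at 112 and 114 CPM in WT cells, while HMGB2 was at 209 and 195, 147 and 178, and 59.3 and 64.9 CPM. Y537S and D538G cells were not compared with each other in a test.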
